A study of Homo sapiens with 6 samples.

Results

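The circadian clock genes are 10 genes that encode the core of the cell-autonomous daily oscillator: the activators CLOCK and ARNTL (also named BMAL1), the period genes PER1, PER2 and PER3, the cryptochrome genes CRY1 and CRY2, the REV-ERB receptor genes NR1D1 and NR1D2, and DBP. They were taken by symbol, through their Ensembl gene identifiers, from a table of 62492 genes. All 10 passed the filter on low counts and were tested.

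RNA sequencing was performed on HCT116, a human colorectal carcinoma cell line, after transfection with 20 nM of a control siRNA (siControl, genotype labelled WT) or of an siRNA against NONO (siNONO, genotype labelled NONO knockdown). NONO is an RNA-binding protein of paraspeckles, which are nuclear bodies built on a long noncoding RNA. Each group had 3 libraries of polyadenylated RNA, 1 in each of Sets 1, 2 and 3, and the comparison asked which transcripts differ when NONO is depleted. The knockdown rested on 1 siRNA duplex, the interval between transfection and harvest for these libraries and any synchronisation of the cells are not given in the sources used here, and the labels name no time points. Libraries without a time course give a level, not the phase or amplitude of an oscillation. Nothing in the labels says that the Sets were separate cultures, so p-values measure the spread between these libraries, which may be technical.

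The clock runs as a delayed feedback loop. CLOCK and ARNTL form a heterodimer that binds E-box sequences and turns on the PER, CRY, NR1D and DBP genes, and the PER and CRY proteins then return to the nucleus and repress that heterodimer. In a second loop the REV-ERB proteins, made from NR1D1 and NR1D2, repress ARNTL, which the ROR receptors activate, while DBP drives genes that carry a D-box. NONO is itself known as a protein partner of the PER complex, which is why these genes are of interest after its depletion. Cultured cells whose clocks are not synchronised run out of phase with each other, so a bulk library averages over phases, and fewer cells expressing a gene cannot be told apart from less RNA per cell.

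Each member is annotated as a protein-coding gene. Their positions below are those of the whole gene in GRCh37, the build of the deposited table, read from GENCODE 44 lifted to that build. CLOCK (ENSG00000134852.15_6) lies at chr4:56294070-56413076 on the minus strand and ARNTL (ENSG00000133794.19_5) at chr11:13298199-13408813 on the plus strand. PER1 (ENSG00000179094.16_8) lies at chr17:8043790-8059824 on the minus strand, PER2 (ENSG00000132326.12_6) at chr2:239152685-239198743 on the minus strand and PER3 (ENSG00000049246.14_3) at chr1:7844351-7905237 on the plus strand. CRY1 (ENSG00000008405.12_6) lies at chr12:107385142-107487327 on the minus strand and CRY2 (ENSG00000121671.12_5) at chr11:45868669-45904799 on the plus strand. NR1D1 (ENSG00000126368.6_5) lies at chr17:38249046-38256842 on the minus strand, NR1D2 (ENSG00000174738.13_4) at chr3:23986777-24022108 on the plus strand and DBP (ENSG00000105516.11_5) at chr19:49133287-49140636 on the minus strand. Several members share exon bases with a gene on the opposite strand: DBP with SPHK2 over 661 bases, NR1D1 with THRA over 473, PER3 with UTS2 over 868 and CLOCK with TMEM165 over 76. ARNTL, PER3, PER2 and CRY1 share 421, 482, 188 and 94 bases with long noncoding RNAs on the opposite strand, and PER1 shares 30 bases with a protein-coding gene model on its own strand, which a stranded kit cannot separate. The library kit keeps strand, but whether the counting used it is not given in the sources used here, so reads of the opposite-strand pairs may have been shared between them. The deposited estimated counts of PER3 and DBP were fractional in all 6 libraries and those of NR1D1 in 5, which happens when reads are divided between genes. Those of PER2 were fractional in 1 library, and those of CLOCK, ARNTL, PER1, CRY1, CRY2 and NR1D2 were whole in every library.

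The promoters of the members were searched for the letters that clock factors are known to bind. Promoter windows of 300 bases, 250 before and 50 after an annotated start, were read from RefSeq on GRCh38.p14, a different build from that of the expression table, and the 10 members had 15 such windows. The searches covered both strands for the E-box CACGTG, the related E-prime box CACGTT, the D-box spelled TTATGTAA, TTACGTAA or TTATATAA, the REV-ERB and ROR core letters AGGTCA, and the cAMP response element TGACGTCA. No motif overlaps another of these in the windows shown. Below are the 250 bases before the start for 4 members, chosen because together they show each kind of match and because NR1D2 and CRY1 were lower and PER1 and PER3 higher in siNONO. Letters are 5′ to 3′ on the strand of the gene, and capitals mark a match on either strand.
NR1D2, chr3:23945871-23946120, plus strand: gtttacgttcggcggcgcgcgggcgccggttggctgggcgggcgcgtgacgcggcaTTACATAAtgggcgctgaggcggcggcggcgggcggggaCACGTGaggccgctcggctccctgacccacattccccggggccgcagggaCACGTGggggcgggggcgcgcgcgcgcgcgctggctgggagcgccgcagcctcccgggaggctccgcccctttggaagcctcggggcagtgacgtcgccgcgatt
CRY1, chr12:107093550-107093799, minus strand: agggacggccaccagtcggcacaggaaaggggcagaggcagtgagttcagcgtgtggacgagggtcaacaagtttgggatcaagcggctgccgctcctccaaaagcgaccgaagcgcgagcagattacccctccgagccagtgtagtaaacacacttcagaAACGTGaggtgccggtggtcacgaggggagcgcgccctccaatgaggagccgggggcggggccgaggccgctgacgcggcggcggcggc
PER1, chr17:8152405-8152654, minus strand: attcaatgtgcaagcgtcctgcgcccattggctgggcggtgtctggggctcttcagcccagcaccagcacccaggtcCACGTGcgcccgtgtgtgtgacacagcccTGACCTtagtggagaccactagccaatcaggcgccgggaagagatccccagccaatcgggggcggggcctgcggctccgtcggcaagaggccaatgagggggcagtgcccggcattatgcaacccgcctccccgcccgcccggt
PER3, chr1:7784041-7784290, plus strand: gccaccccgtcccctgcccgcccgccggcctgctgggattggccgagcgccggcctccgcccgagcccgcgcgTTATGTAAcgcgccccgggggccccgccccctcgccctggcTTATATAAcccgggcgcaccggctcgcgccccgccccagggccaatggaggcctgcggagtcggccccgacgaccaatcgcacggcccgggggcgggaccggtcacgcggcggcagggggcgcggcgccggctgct

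The NR1D2 window holds a pair of E-boxes, with first bases at −155 and −105 from the start, and a D-box at −194. PER1 has an E-box at −173 and an AGGTCA match on the opposite strand at −144, and CRY1 has an E-prime box at −89. PER3 has a pair of D-boxes, at −177 and −136. Of the members not printed, PER2 has an E-prime box at −197 and a D-box at −3, and CLOCK, CRY2 and NR1D1 have an E-prime box at −187, −188 and −168. AGGTCA was also found in ARNTL, at position 32 after the start, and in both windows of CRY2, at −62 and −64, and none of these letters were found in the DBP window. Over all 15 windows of the members, the E-box was found in 2, the E-prime box in 5, the D-box in 3, AGGTCA in 4 and TGACGTCA in 0. Over all 35116 windows of the reference, the same letters were found in 7.26%, 5.34%, 1.43%, 13.8% and 1.85%, respectively. A match is a description of the letters only. Members that rose and members that fell both carried E-box or D-box letters.

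The targeted gene was checked first. NONO stood at 496, 495 and 516 CPM in siControl Sets 1, 2 and 3, and at 89.5, 95.5 and 100.4 CPM in siNONO, where CPM are counts scaled to library size by the trimmed mean of M-values. The groups did not overlap, and NONO fell by 81.1% (log2 fold change −2.40 ± 0.0337 SE, adjusted p = 2.47e-13 from the quasi-likelihood test of edgeR, corrected after Benjamini and Hochberg over all tested genes, as for every adjusted p below unless another test is named). Library totals ran from 21765393 to 32659002 estimated counts, lowest in siControl Set 3. In each group the Set 3 library stood furthest from the other two, with chi-square per degree of freedom of 7.76 and 6.69 against 3.44 in siControl and of 13.8 and 12.7 against 3.23 in siNONO. Much of the transcriptome differed between the groups: of 17000 genes tested, 7924 passed an adjusted p of 0.05, which is 46.6%, with 23.2% higher and 23.4% lower in siNONO. Colon epithelial markers were present in every library at levels per length of 33.1 TPM (a unit scaled to transcript length and to the library) or more for EPCAM, CDH1, KRT8, KRT18 and KRT19 and of 7.46 TPM or more for CDX2. VIL1 was nearly absent, at 0.01 to 0.17 TPM. Of the markers of other cells, the leukocyte marker PTPRC stood at 0 to 0.01 TPM. COL1A1, at 16.2 to 19.0 TPM, and ACTA2, at 4.82 to 12.5 TPM, were present in every library.

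All 10 clock genes passed the test, against 46.6% of all tested genes. CLOCK, ARNTL, PER1 and PER3 were higher in siNONO, which is 4 of 10 against 23.2% of all tested genes, and PER2, CRY1, CRY2, NR1D1, NR1D2 and DBP were lower, which is 6 of 10 against 23.4%. The CPM of the groups did not overlap for 8 of the 10, while this was so for 47.8% of all tested genes. The changes were small. Their absolute log2 fold changes ran from 0.12 to 0.44 with a median of 0.27, beside a median of 0.21 over all tested genes and 0.32 over those that passed. In CPM, each member changed in the same direction in all 3 Sets, a count not taken over all tested genes. In TPM, PER1 in Set 1 (22.6 to 20.9) and CLOCK in Set 3 (22.8 to 21.9) went the other way. How firmly the calls held differed between members: CRY1, ARNTL and NR1D2 passed under all 16 alternative settings tried, and the other 7 lost the call under at least 1 of them. How many of all called genes kept the call under every setting was not counted. Without the Set as a block, 6 of the 10 passed, beside 36.3% of all tested genes. Leaving out the Set 1 library of siControl or of siNONO also left 6, beside 37.9% and 37.4%. Without the Set 3 library of siControl or of siNONO, 8 passed, beside 43.1% and 43.97%. With the Set as a block, leaving out either library of a Set removes that Set from the comparison. Fits without the siControl or the siNONO library of the same Set are thus nearly the same check. No member changed direction in any setting.

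**Figure D1:**
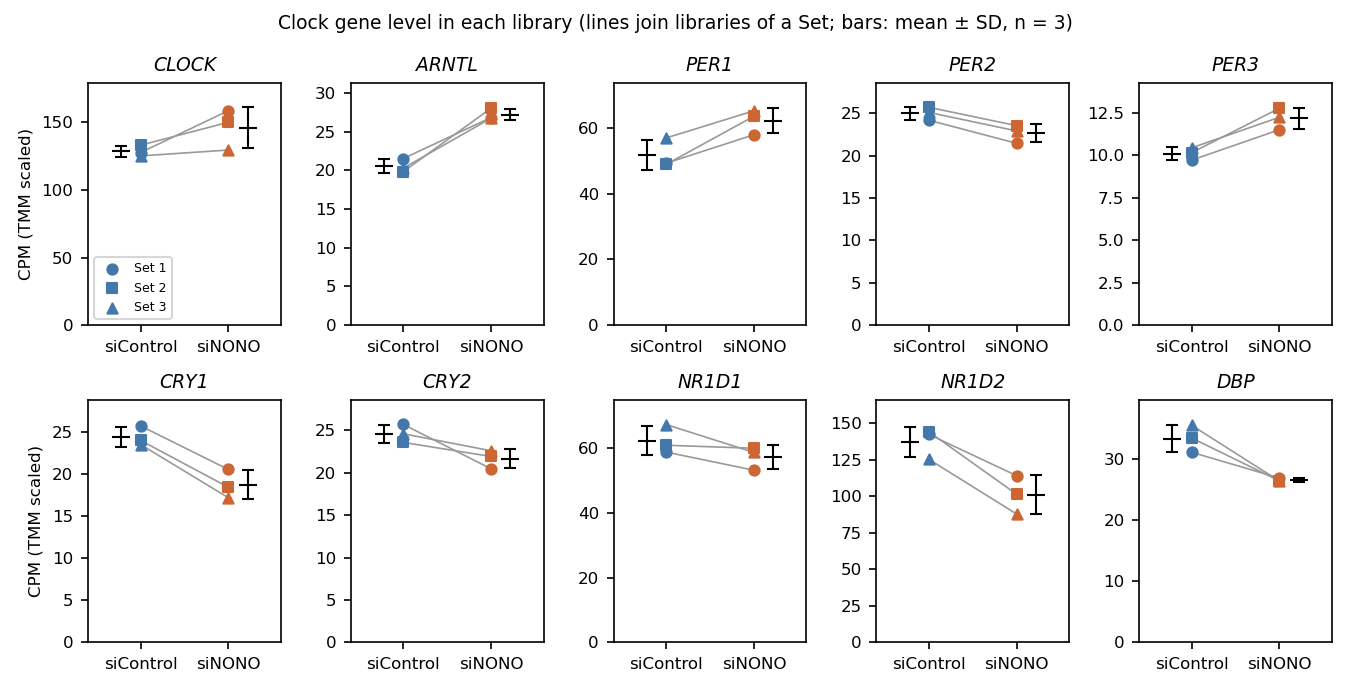
Level of each clock gene in the 6 libraries, in CPM on linear axes from 0, with siControl in blue and siNONO in orange, a line joining the libraries of each Set, and bars for the mean ± SD of 3 libraries. ARNTL rises and NR1D2, CRY1 and DBP fall along every line, while the points of CLOCK and NR1D1 overlap between the groups.

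The activators rose. ARNTL, the partner through which the REV-ERB and ROR receptors tune the loop, had 21.5, 19.8 and 20.3 CPM in siControl and 26.8, 28.0 and 26.7 CPM in siNONO, from counts of 445 to 779 per library. Every siNONO library lay above every siControl library. The means were 20.5 ± 0.875 and 27.2 ± 0.720 CPM (SD, n = 3), an increase of 32.2% (log2 fold change 0.40 ± 0.0581 SE, adjusted p = 1.00e-04). Of all tested genes, 75.4% had a smaller absolute change. CLOCK, the histone acetyltransferase that pairs with ARNTL, had 128, 133 and 125 CPM in siControl and 159, 150.03 and 129.5 CPM in siNONO. The siNONO library of Set 3 lay inside the siControl range, so the groups overlapped. Within Sets 1, 2 and 3 the log2 fold change of CLOCK was 0.31, 0.17 and 0.05, and the fitted value was 0.18 ± 0.0439 SE (adjusted p = 0.00436). That call was lost without the Set 1 library of siControl (log2 fold change 0.12, adjusted p = 0.0683) or of siNONO (0.11, adjusted p = 0.0795), and without the Set block (adjusted p = 0.0579).

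The period genes split. PER1, an immediate early gene of the clock that responds to cAMP and glucocorticoid signals, had 49.3, 49.0 and 57.0 CPM in siControl and 58.0, 63.6 and 65.3 CPM in siNONO. The groups did not overlap, although the highest siControl library and the lowest siNONO library were less than 1 CPM apart. The means were 51.8 ± 4.54 and 62.3 ± 3.81 CPM (SD, n = 3), an increase of 20.5% (log2 fold change 0.27 ± 0.0456 SE, adjusted p = 3.54e-04). PER3, the least abundant member, had 9.71, 10.2 and 10.4 CPM in siControl and 11.5, 12.8 and 12.2 CPM in siNONO, from counts of 229 to 355 per library. Its groups did not overlap, and its increase of 20.4% matched that of PER1 in size (log2 fold change 0.27 ± 0.0758 SE, adjusted p = 0.0112). Without the Set 2 library of siControl or of siNONO the PER3 value was 0.25 and 0.24, with adjusted p of 0.0669 and 0.0799. PER2, the period protein whose stability sets the length of the cycle, went the other way, with 24.2, 25.7 and 25.1 CPM in siControl and 21.5, 23.5 and 22.9 CPM in siNONO. All siNONO libraries lay below the siControl range. PER2 decreased by 9.49% (log2 fold change −0.14 ± 0.0541 SE, adjusted p = 0.0452). The call was lost when any 1 of the 6 libraries was left out (log2 fold change −0.15 to −0.13, adjusted p up to 0.242). Each such fit removes 1 of the 3 Sets from the comparison. It was also lost without the Set block (adjusted p = 0.126).

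Both cryptochrome genes fell. CRY1, the stronger repressor of CLOCK and ARNTL, had 25.7, 23.96 and 23.5 CPM in siControl and 20.5, 18.4 and 17.2 CPM in siNONO. The groups were well apart. The means were 24.4 ± 1.16 and 18.7 ± 1.69 CPM (SD, n = 3), and CRY1 fell by 23.2% (log2 fold change −0.38 ± 0.0579 SE, adjusted p = 1.50e-04). CRY2 had 25.7, 23.6 and 24.6 CPM in siControl and 20.5, 21.9 and 22.6 CPM in siNONO. Here too no library crossed over, but the distance between the groups came largely from Set 1, whose log2 fold change was −0.33 beside −0.10 and −0.12 in Sets 2 and 3. CRY2 fell by 12.2% (log2 fold change −0.19 ± 0.0617 SE, adjusted p = 0.0243). Without the Set 1 library of siControl or of siNONO it stood at −0.11 with adjusted p of 0.318 and 0.289, respectively, and without the Set block the adjusted p was 0.0566.

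**Figure D2:**
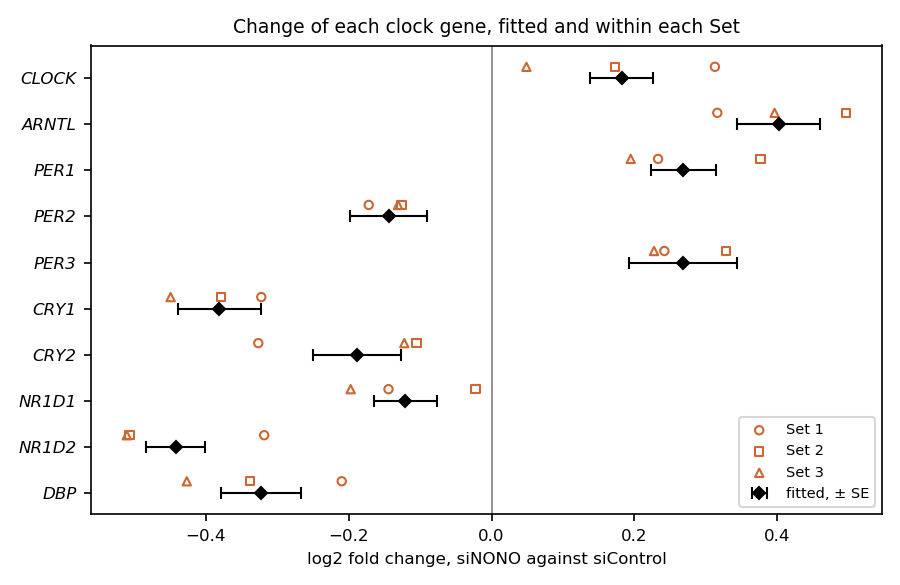
Log2 fold change of siNONO against siControl for each clock gene, with the fitted value ± SE as a black diamond and the value within each Set as an open symbol. Values within Sets are from CPM. All Sets fall on the same side of 0 for every gene, and the CLOCK and NR1D1 symbols come closest to 0, at 0.05 in Set 3 and −0.02 in Set 2.

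The REV-ERB genes fell, and NR1D2 had the largest change of the 10. NR1D2, which encodes the heme-binding repressor REV-ERB beta, had 142, 144 and 125 CPM in siControl and 114, 101 and 87.8 CPM in siNONO, from counts of 2455 to 4685 per library. The lowest siControl library, that of Set 3, stayed above the highest siNONO library, that of Set 1. The means were 137 ± 10.4 and 101 ± 13.1 CPM (SD, n = 3), and NR1D2 fell by 26.4% (log2 fold change −0.44 ± 0.0414 SE, adjusted p = 2.46e-06). Of all tested genes, 78.8% had a smaller absolute change. NR1D1, which encodes REV-ERB alpha, had 58.7, 60.8 and 67.2 CPM in siControl and 53.1, 59.9 and 58.6 CPM in siNONO. The groups overlapped, since the siNONO library of Set 2 lay above the siControl library of Set 1. NR1D1 decreased by 8.04%, the smallest absolute log2 fold change of the members (−0.12 ± 0.0442 SE, adjusted p = 0.0402). The NR1D1 call was lost without the Set 1 library of either group (log2 fold change −0.10 for siControl and −0.11 for siNONO), without the Set 3 library of either group (−0.08 for both) and without the Set block (adjusted p = 0.201).

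DBP, a D-box activator and a direct readout of CLOCK and ARNTL activity, had 31.0, 33.3 and 35.4 CPM in siControl and 26.8, 26.4 and 26.3 CPM in siNONO. The siNONO libraries lay close together and below every siControl library. The means were 33.3 ± 2.20 and 26.5 ± 0.273 CPM (SD, n = 3), and DBP fell by 20.1% (log2 fold change −0.32 ± 0.0561 SE, adjusted p = 4.24e-04). On counts, the activator genes and the genes that their heterodimer is known to turn on did not move in 1 direction. ARNTL and CLOCK were higher. Of the genes it is known to turn on, NR1D2, CRY1, DBP, CRY2, PER2 and NR1D1 were lower, and PER1 and PER3 were higher.

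**Figure D3:**
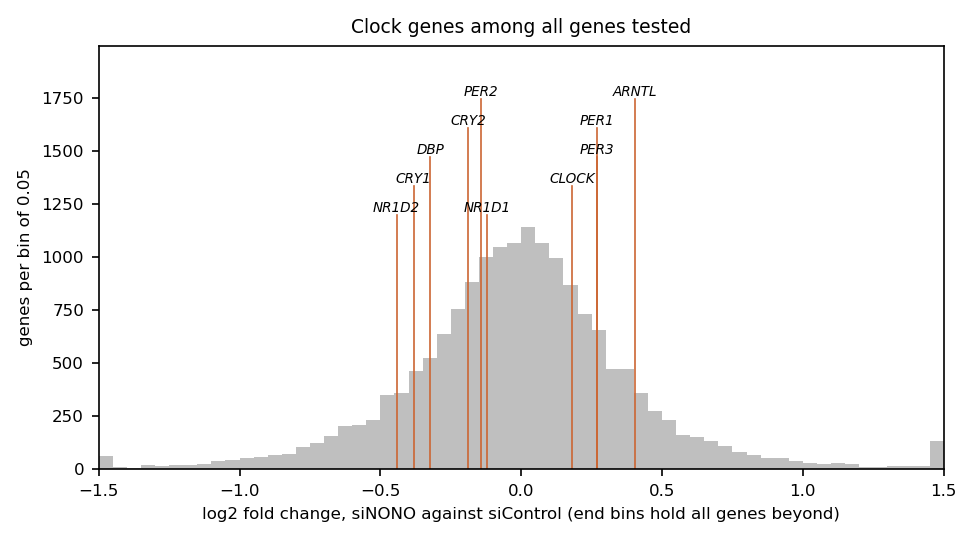
Distribution of the fitted log2 fold changes of all 17000 genes tested in bins of 0.05, with the 10 clock genes marked by orange lines and the end bins holding all genes beyond. The clock genes lie on both sides of 0 inside the bulk of the distribution, from −0.44 for NR1D2 to 0.40 for ARNTL.

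Levels per length, which allow genes to be compared with each other, were taken from the deposited TPM values. In siControl NR1D2 was the most abundant clock transcript, at 45.1, 46.7 and 46.4 TPM, and PER3 the least, at 2.47, 2.60 and 2.73 TPM. Between them the mean levels stood in the order NR1D1 (36.2 TPM), DBP (33.3), CLOCK (23.2), PER1 (21.5), CRY1 (14.4), ARNTL (13.7), CRY2 (11.1) and PER2 (5.83). Only the neighbours NR1D1 and DBP, and CRY1 and ARNTL, overlapped in range over the 3 siControl libraries. In siNONO the top of the order closed up. NR1D2 had 35.5, 32.0 and 33.1 TPM, the lowest of them inside the range of NR1D1 at 29.4, 32.0 and 32.1 TPM, and DBP overlapped NR1D1 at 28.8, 30.3 and 26.9 TPM. ARNTL had 14.0, 13.1 and 14.0 TPM in siControl and 17.8, 16.9 and 17.8 TPM in siNONO, while CRY1 had 14.9, 14.5 and 13.6 TPM and then 12.5, 9.78 and 9.28 TPM. The pair that overlapped in siControl was thus apart in siNONO, with ARNTL above CRY1.

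**Figure D4:**
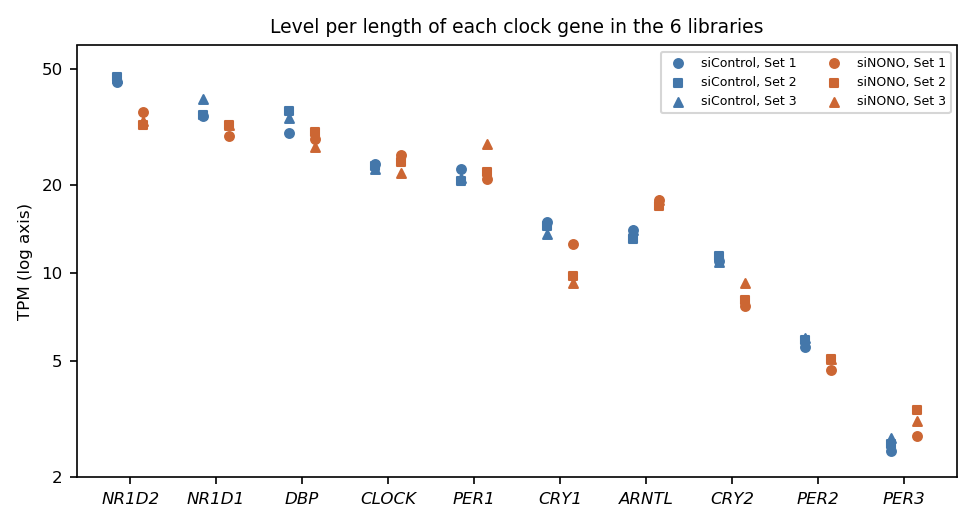
Level per length of each clock gene in TPM on a log axis, with siControl in blue and siNONO in orange and a symbol for each Set, ordered by the mean in siControl. NR1D2 stands alone at the top in siControl (46.1 TPM) and joins NR1D1 in siNONO (33.5 and 31.2 TPM), and ARNTL and CRY1 move apart.

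On the TPM scale the groups overlapped for PER1, CLOCK and DBP. PER1 had 22.6, 20.6 and 21.2 TPM in siControl and 20.9, 22.1 and 27.7 TPM in siNONO, so that its Set 1 value was lower in siNONO although its CPM value was higher. CLOCK had 23.6, 23.3 and 22.8 TPM in siControl and 25.4, 24.1 and 21.9 TPM in siNONO, so that its Set 3 value was lower in siNONO. CRY2, in contrast, was further apart per length than in CPM, with 10.98, 11.4 and 10.9 TPM in siControl and 7.72, 8.09 and 9.22 TPM in siNONO. PER2 had 5.58, 5.91 and 6.0 TPM in siControl and 4.66, 5.08 and 5.10 TPM in siNONO, and PER3 had 2.78, 3.39 and 3.13 TPM in siNONO, above its siControl range. With limma on log2(TPM + 1), 5 clock genes passed the test, ARNTL higher and CRY1, CRY2 (−0.38), NR1D1 (−0.21) and NR1D2 lower, while PER1 (log2 fold change 0.12, adjusted p = 0.398) and CLOCK (0.03, adjusted p = 0.712) did not. Of all genes tested in that fit, 30.92% passed. On this scale the median of all genes lay at −0.07 and 31.3% of the genes that passed were higher, beside 49.7% on counts.

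The deposited abundance-weighted transcript length, which moves when the mix of isoforms of a gene moves, was compared as a separate readout. For no clock gene did the lengths of the groups stand apart. CLOCK had 7915, 8097 and 8023 bases in siControl and 8571, 8296 and 8058 in siNONO, a difference in means of 296.5 bases (p = 0.2 by an exact two-sided permutation test, adjusted p = 0.667 over the 10 genes). CRY2 differed by 310.4 bases and DBP by −183.5 bases, each with the same exact permutation p. PER1 varied widely within each group, from 3309 to 4023 in siControl and from 3333 to 3931 in siNONO. The permutation test did not use the Set, unlike the fits with a block. With 3 libraries against 3 the smallest p this test can give is 0.1, so a length change was not detectable here rather than absent. NR1D1 was quantified at 2630 bases in every library.

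As a description of the loop, the summed TPM of its repressors PER1, PER2, PER3, CRY1 and CRY2 was set against that of its activators CLOCK and ARNTL. The ratio was 1.504, 1.52 and 1.48 in siControl and 1.12, 1.18 and 1.37 in siNONO, with means of 1.5 ± 0.0186 and 1.23 ± 0.129 (SD, n = 3). Every siNONO library was below every siControl library, and Set 3 of siNONO was closest to them. No test was made of this sum. With the paralogs NPAS2 and ARNTL2 counted among the activators the difference was gone, at 0.027 on the log2 scale beside −0.29 without them. On CPM in place of TPM it was −0.19.

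The wider clock network was described with 29 further genes in lists of known roles, of which 28 passed the filter. Among these, 4 were higher, 13 lower, NONO included, and 11 did not pass, with a median log2 fold change of −0.165. The shares of 23.2% higher and 23.4% lower over all tested genes stand beside these counts. The activator paralogs ARNTL2 and NPAS2, which can take the places of ARNTL and CLOCK, both fell, by −0.34 ± 0.0561 and −0.31 ± 0.0599 on the log2 scale (SE, adjusted p = 2.69e-04 and 8.42e-04), opposite to the rise of ARNTL and CLOCK. With limma on log2(TPM + 1) NPAS2 stood at −0.50 (adjusted p = 0.0536). ARNTL2 had 33.1, 36.2 and 31.9 CPM in siControl and 28.4, 26.8 and 24.5 CPM in siNONO, and its groups did not overlap.

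Of the 5 accessory repressors, 1 was higher, 1 lower and 3 did not pass. Over all tested genes, 46.6% passed, with 23.2% higher and 23.4% lower. BHLHE40, which competes for E-boxes, rose by 0.17 (log2, adjusted p = 0.0111). Without the Set 2 library of siControl or of siNONO it stood at 0.11 (adjusted p = 0.128) and 0.10 (adjusted p = 0.172), and the call was also lost with DESeq2 (adjusted p = 0.0625) and with limma on log2(TPM + 1) (0.09, adjusted p = 0.339). TIMELESS, a replication fork protein with a link to the clock, fell by 0.19 (log2, adjusted p = 7.74e-04). NFIL3, the repressor that opposes DBP at D-boxes, stood at 0.05 (adjusted p = 0.453), and BHLHE41 at 0.17 (adjusted p = 0.363). Of the ROR receptors and REV-ERB corepressors, HDAC3 was the only 1 of 3 tested to pass, and it rose. HDAC3, the deacetylase through which REV-ERB represses, had 43.0, 43.7 and 45.9 CPM in siControl and 81.4, 80.5 and 85.3 CPM in siNONO, a log2 fold change of 0.90 ± 0.0390 SE (adjusted p = 2.81e-09). Its corepressor NCOR1 stood at −0.04 (adjusted p = 0.507). The ROR genes described were scarcely expressed: RORA was at or below 0.866 CPM in every library with a log2 fold change of −0.33 (adjusted p = 0.441), and RORB, at 0 or 1 count per library, failed the filter.

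Of 6 D-box factors and clock outputs, 3 fell and 3 did not pass, beside 46.6% of all tested genes that passed and 23.4% that were lower. TEF, the PAR-bZIP relative of DBP, had 41.6, 42.1 and 40.3 CPM in siControl and 26.3, 26.1 and 28.6 CPM in siNONO, and fell by 0.62 (log2, adjusted p = 1.31e-06). WEE1, a kinase that holds cells before mitosis and a known clock output, fell by 0.70 (log2, adjusted p = 4.03e-07), and NAMPT, the NAD salvage enzyme, by 0.19 (log2, adjusted p = 4.50e-04), a call lost without the Set block (adjusted p = 0.0786). USP2, a deubiquitinase, stood at −0.17 (adjusted p = 0.160). The kinases and ubiquitin ligases that time the decay of PER and CRY gave 2 lower and 3 that did not pass, of 5. The same shares of all tested genes stand beside these counts. The kinase gene GSK3B fell by 0.56 (log2, adjusted p = 9.36e-08). BTRC, a ligase adaptor that sends PER proteins to decay, fell by 0.24 (log2, adjusted p = 2.07e-04), while its relative FBXW11 stood at −0.09 (adjusted p = 0.0657) and the casein kinase gene CSNK1E at 0.08 (adjusted p = 0.0753).

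Of 7 genes whose proteins are known in the PER complex, transcripts of 2 were higher and of 5 lower. The lower ones include NONO, the target of the siRNA. Over all tested genes, 23.2% were higher and 23.4% lower. SFPQ, the paraspeckle partner of NONO, had 483, 490.2 and 482 CPM in siControl and 574, 582 and 542 CPM in siNONO, a rise of 16.6% (log2 fold change 0.22 ± 0.0293 SE, adjusted p = 4.76e-05). SIN3A, the scaffold of the histone deacetylase complex that PER is known to recruit, fell by 0.40 (log2, adjusted p = 2.58e-06), HDAC1 by 0.24 (log2, adjusted p = 1.16e-04) and the RNA helicase DHX9 by 0.29 (log2, adjusted p = 4.07e-06).

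**Figure D5:**
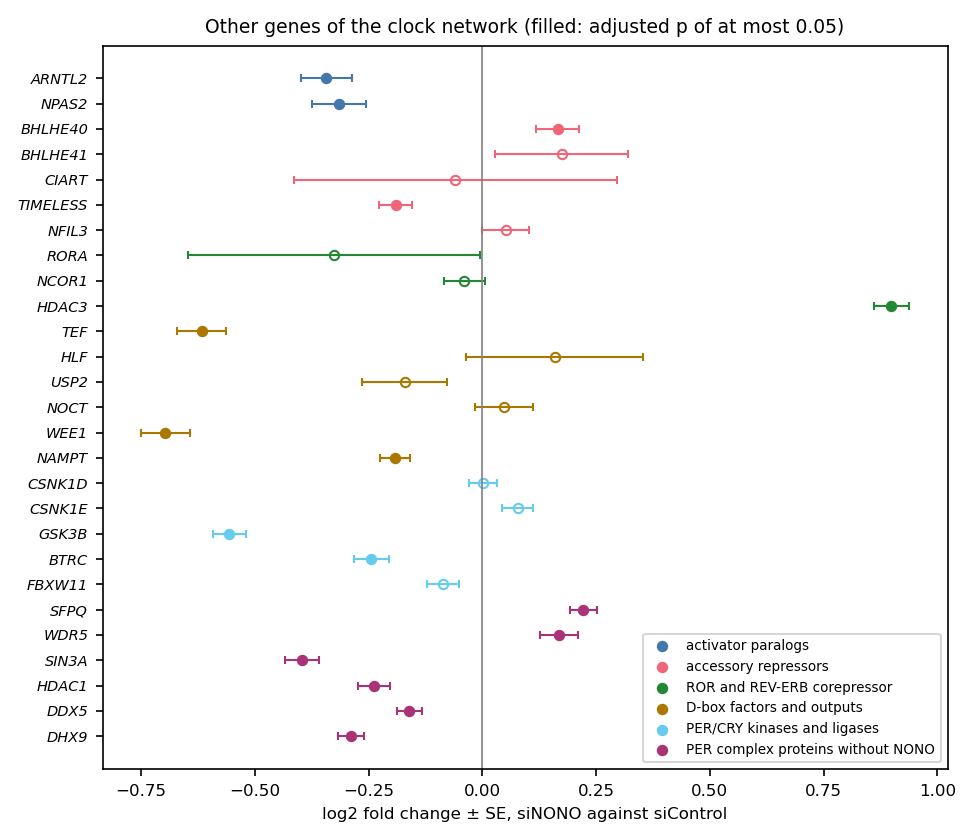
Log2 fold change ± SE of siNONO against siControl for 27 tested genes of the clock network beyond the 10 members, without NONO, coloured by role, with filled points for an adjusted p of at most 0.05. HDAC3 stands apart at 0.90, the lower end is held by WEE1 at −0.70 and TEF at −0.62, and RORA and CIART have the widest errors.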

How the data were processed

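RNA was isolated with TRIzol and stranded poly(A) libraries were made from HCT116 cells, 3 siControl and 3 siNONO. According to the methods and the labels, the authors trimmed the reads, aligned them with STAR to GENCODE 34 transcripts on GRCh37 and deposited the expected counts and TPM values of each gene from RSEM 1.3.1, with an abundance-weighted transcript length. The estimated counts, rounded to whole numbers, were tested here in R 4.3.3 with edgeR 4.0.16 (TMM scaling, filterByExpr by group, quasi-likelihood F-test in the edgeR 3 form, Set as a block, Benjamini-Hochberg adjustment over 17000 genes, threshold 0.05), which on simulated counts of 16777 genes recovered 99% of 200 genes changed by a log2 fold change of 1, with 12 false calls. The simulation used a common dispersion and no difference between Sets, and its changes were larger than those of the clock genes. It therefore does not measure recovery of absolute log2 fold changes of 0.12 to 0.44. The study's methods name a batch term without saying what a batch was, and the Set was taken as the block here. Deviations of same-Set libraries correlated at 0.427, 0.253 and 0.504 over 10840 genes. Across the groups, those of Sets 1 and 2 correlated with each other at 0.146 and 0.160, and with Set 3 at −0.437 to −0.259. No 2 libraries of a group agreed within sampling noise. Symbols were matched for 62211 of 62492 identifiers, and PECAM1, on the list of markers of other cells, had none.

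CPM are TMM-scaled. Totals of 21765393 to 32659002 counts and a biological coefficient of variation of 3.51% set the precision. DESeq2 1.42.0 and limma 3.58.1 on log2(TPM + 1) or log2(TPM + 0.1) were alternatives, as were other scalings, filters, the fit without the block, the edgeR 4 form, leaving out each library, and counts not rounded, the last chosen after seeing the data. Lengths were compared with SciPy 1.17.1. The members and gene lists were chosen with earlier results of these data known. The text names all members, NONO and SFPQ, at most 4 genes of each other list by lowest adjusted p, those failing the filter, and the 3 genes most like the member of lowest adjusted p. Beside this rule, further colon markers, CIART and WDR5 are named and the network plot shows every tested gene of its lists, chosen after values were seen. Some genes of these lists are not reported here. The colon marker list and the list for other cells gave 2 and 1 higher genes and 0 lower of 6 and 2 tested. Over all tested genes, 23.2% were higher and 23.4% lower.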

Additional observations from a re-analysis of the deposited data

How the results depend on the processing

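The alternatives turned no clock gene's direction, and NONO and the count of network genes (15 to 18) stayed on their side of the threshold. Libraries of the same Set deviated together more than those of different Sets, so the block was kept. For Set 2 the difference was small, at 0.253 beside 0.146 and 0.160 with Set 1. With no replicate block, 6 clock genes passed, PER2 (−0.14, adjusted p = 0.126), CRY2 (−0.19, 0.0566), CLOCK (0.18, 0.0579) and NR1D1 (−0.12, 0.201) being lost, and 6164 genes passed in all. With no filter on low counts, PER2 (−0.13, adjusted p = 0.172) and NR1D1 (−0.10, 0.101) were lost. DESeq2 with the block called 5206 genes and 6 clock genes, without PER2 (−0.14, adjusted p = 0.325), PER3 (0.27, 0.173), CRY2 (−0.19, 0.201) and NR1D1 (−0.12, 0.207). limma on log2(TPM + 1) called 5257 genes and 5 clock genes, without PER1 (0.12, adjusted p = 0.398), PER2 (−0.20, 0.154), PER3 (0.19, 0.226), CLOCK (0.032, 0.712) and DBP (−0.21, 0.0591). limma on log2(TPM + 0.1) called 5250 genes and 5 clock genes, without PER1 (0.12, adjusted p = 0.392), PER2 (−0.23, 0.156), PER3 (0.24, 0.257), CLOCK (0.033, 0.710) and DBP (−0.21, 0.0575). The share of all genes tested that passed was 36.26% without the block and 25.36% without the filter. It was 34.66% with DESeq2, and 30.92% and 30.88% with limma at pseudocounts of 1 and 0.1. The genes tested numbered 31999 without the filter, 15022 with DESeq2 and 17000 in the other fits named so far. Leaving out each library left 6 to 8 clock genes, beside 37.4% to 43.97% of all genes tested, with PER2 from −0.15 to −0.13, PER3 from 0.24 to 0.29, CRY2 from −0.23 to −0.11, CLOCK from 0.11 to 0.25 and NR1D1 from −0.17 to −0.08. With the block, leaving out either library of a Set removes that Set, so fits for the same Set are nearly the same check. The repressor to activator ratio went from −0.29 to 0.027 (log2) with NPAS2 and ARNTL2 added and to −0.19 with CPM in place of TPM. The cause of these differences was not tested. Of the single values of network genes, 14 changed their side of the threshold in some setting, NAMPT, BHLHE40, NPAS2 and WDR5 losing a call and NCOR1, FBXW11 and CSNK1E gaining 1. With no time course and 3 libraries a group, changes as small as those of PER2 and NR1D1 were at the limit of what could be called.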

Other observations

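Inputs to the clock were described with a list of 14 genes of cAMP and CREB signalling and immediate early response, all tested, of which 6 were higher, 4 lower and 4 did not pass, with a median log2 fold change of 0.17. These counts stand beside 23.2% higher and 23.4% lower over all tested genes. The nuclear receptor gene NR4A3 had 1.27, 1.06 and 1.73 CPM in siControl and 5.21, 4.57 and 4.97 CPM in siNONO, a log2 fold change of 1.88 ± 0.179 SE (adjusted p = 2.87e-06), at low level in every library. Its relative NR4A1 had 17.7, 15.3 and 18.4 CPM in siControl and 29.0, 29.2 and 35.3 CPM in siNONO (log2 fold change 0.85 ± 0.0624 SE, adjusted p = 2.71e-07). EGR1, an immediate early transcription factor, rose by 0.36 (log2, adjusted p = 1.66e-05), whereas CREB1, the factor that binds the cAMP response element, fell by 0.39 (log2, adjusted p = 5.35e-05). PER1, which is known to answer to CREB, rose by 0.27. No TGACGTCA was found in its promoter window, which covers 250 bases before and 50 after the start. Other spellings of the element and sequence outside the window were not searched. A part of CREB in the change of PER1 was not tested.

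Of 4 glucocorticoid input genes, 2 fell and 2 did not pass, beside 46.6% of all tested genes that passed and 23.4% that were lower. TSC22D3, a classical glucocorticoid target, had 27.8, 25.3 and 27.6 CPM in siControl and 17.8, 17.7 and 17.3 CPM in siNONO, and fell by 0.61 (log2, adjusted p = 2.99e-06). FKBP5, a further target, fell by 0.25 (log2, adjusted p = 8.02e-05). The receptor gene NR3C1 stood at 0.01 (adjusted p = 0.870) and KLF9 at −0.08 (adjusted p = 0.481).

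Among markers of other cells, ACTA2, a smooth muscle actin gene, ran from 4.82 to 12.5 TPM and was higher in siNONO (log2 fold change 1.303, adjusted p = 1.34e-06), while COL1A1 ran from 16.2 to 19.0 TPM (0.02, adjusted p = 0.790). Of the colon epithelial markers, EPCAM (0.32, adjusted p = 3.52e-06) and KRT19 (0.14, adjusted p = 0.00731) were higher in siNONO. Their part in the clock gene results was not tested.

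The genes whose log2 CPM over the 6 libraries was most like that of NR1D2 among 13339 genes compared were POT1, a telomere-binding protein gene (Pearson r = 0.9996), TMEM248 (r = 0.9977) and ZNF189 (r = 0.9961). The points share the 2 groups and their library depths. The log2 fold changes of these genes were −0.25, −0.14 and −0.27, smaller in size than that of NR1D2.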
